A study of Mus musculus with 30 samples.

Results

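The genes described here are 46 heat shock proteins, chaperones and co-chaperones of the mouse, out of 17477 genes in the deposited count table of the hippocampus. The set was drawn up because Stip1 and Hspa1b were higher in socially isolated (SI) than in group-housed (GH) females. Those 2 values chose the set, so the SI against GH values in females, and the counts of members past the threshold of the fit there, are given below as a description, and nothing is read from them. All 46 genes were found in the table by their Ensembl IDs, and all 46 passed the filter on low counts.

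Chaperones bind unfolded or partly folded proteins, use ATP to release them in a state that can fold, and pass on to degradation those that cannot. Hsp70 proteins take up a client with the help of a J-domain protein and let it go with the help of a nucleotide exchange factor such as an Hsp110, while Hsp90 proteins finish kinases and steroid receptors that Hsp70 hands over. Heat, oxidants and misfolded proteins release heat shock factor 1, which binds the heat shock element, a run of inverted GAA units, in the promoters of the inducible members. In neurons the constitutive members are highly expressed and the inducible ones are low at rest.

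RNA-seq was performed on the hippocampus of 30 C57 BL/6J mice, each sequenced as 1 poly-A selected library. The females comprised 8 SI and 7 GH mice, the males 7 SI and 8 GH mice. SI mice lived alone in a cage from weaning into adulthood, whereas GH mice shared a cage with other mice over the same time, and all were killed by a brief exposure to CO2 followed by decapitation. The labels name no genetic change and no drug in any group, and they do not give the cages of the GH mice, so cagemates count here as separate samples. Females have animal numbers from 41 to 79 and males from 1 to 39, so sex and the 2 series of animal numbers cannot be told apart.

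Total counts per library ran from 18809307 to 100844898. Markers of CA1 and CA3 pyramidal and dentate granule neurons were above 0 in every library, with summed levels of 349 to 661, 377 to 843 and 151 to 302 CPM (counts scaled to library size) over 3 genes each. In males, 8 libraries stood apart in one of 2 ways. The first principal component of the male libraries held 59.1% of the variance, and on it SI males 25, 33 and 39 scored -99.5 to -61.4 whereas the other 12 males scored -1.3 to 35.2. GH males 1, 2 and 3 and SI males 7 and 8 had summed levels of 8 choroid plexus markers of 40.1 to 159 CPM, against a median of 2060 CPM over all GH males. Male counts and medians are therefore given with and without these libraries, and so are some single male values whose direction turned without one set. In bulk tissue, fewer cells of a type and less RNA per cell cannot be told apart.

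The 46 genes ranged from some of the most abundant transcripts of the tissue to genes below its median. Levels between genes are given as CPM per kb of the longest transcript, as the mean ± SD of the 15 GH mice, and ranked among 15592 genes that have a length. Cytosolic Hsp90 and the constitutive Hsp70 led. Hsp90ab1 had 745 ± 74.5 CPM per kb (rank 42), Hspa8 had 505 ± 68.1 (rank 73) and Hsp90aa1 had 281 ± 33.5 (rank 167). The SD ranges of these 3 levels were separate, also from Bag1, the next in order, at 105 ± 10.6 CPM per kb. Below it, neighbours in the order had overlapping SD ranges, other than Hspa2 (32.2 ± 3.29) and Dnajb1 (23.5 ± 3.01), Dnajb4 (19.0 ± 1.31) and Hsf1 (13.3 ± 1.31), and Hsf2 (5.89 ± 0.518) and Bag3. The inducible Hsp70 genes stood near the bottom, with 7.32 ± 1.91 CPM per kb for Hspa1b and 6.13 ± 1.16 for Hspa1a, close to the median gene at 5.93 CPM per kb. Bag3, an exchange factor that links Hsp70 to autophagy, was the lowest member at 3.87 ± 0.51 CPM per kb. In all, 25 members were among the top 10% of genes and 2, Hsf2 and Bag3, were below the median gene.

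**Figure D1:**
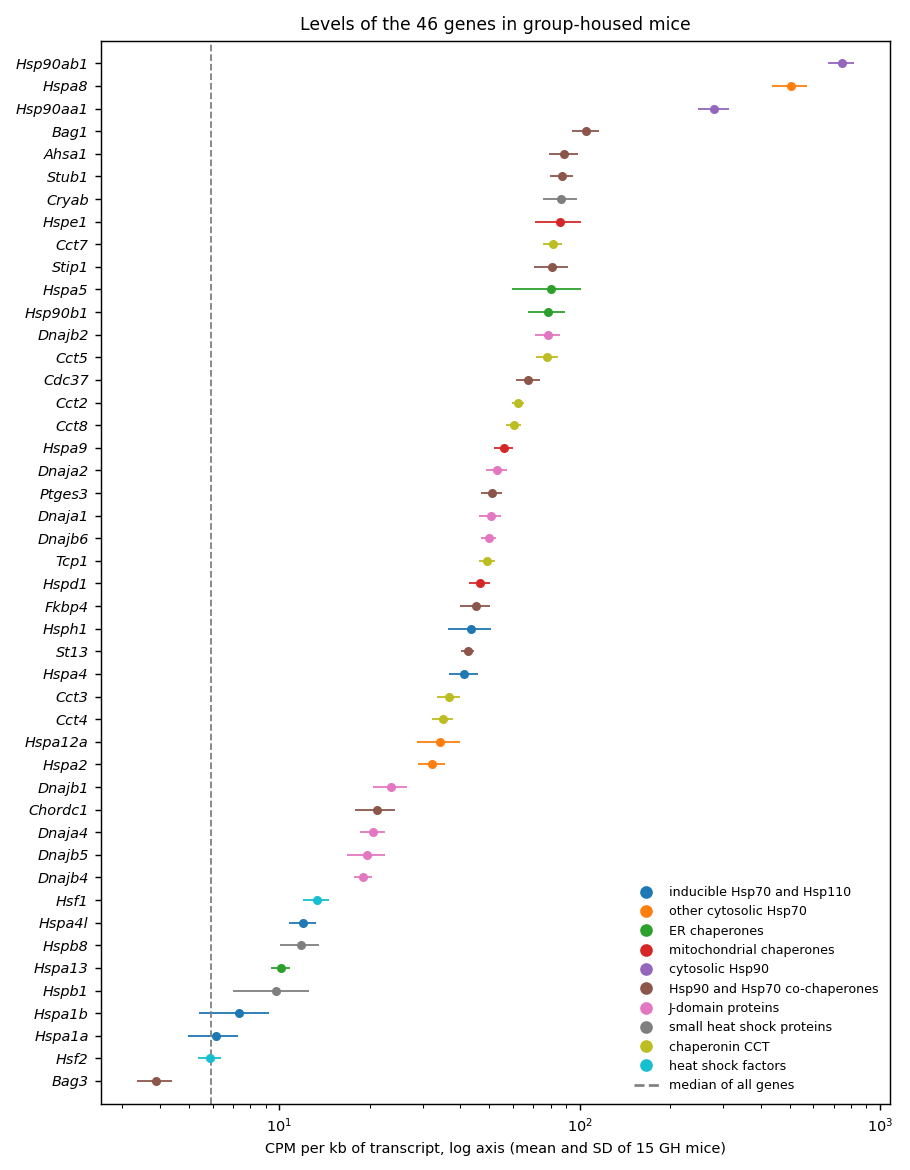
Level of each of the 46 genes in the 15 GH mice, as CPM per kb of transcript on a log axis (point, mean; bar, SD), coloured by role, with a dashed line at the median of all genes (5.93). Hsp90ab1, Hspa8 and Hsp90aa1 lie at the top, and Hspa1b, Hspa1a, Hsf2 and Bag3 at the bottom.

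Promoter windows from RefSeq (GRCm38.p6), 250 bases before to 50 bases from each start site, were found for 37 of the 46 genes. A heat shock element was searched on both strands as the pair of units GAANNTTC and as 3 units, in which a pair is followed by NN and GAA or preceded by TTC and NN, so that every 3-unit match also holds a pair. The 3-unit form was found in 5 of 37 members (13.5%) and in 0.662% of all 27025 genes with such windows. The pair was found in 15 of 37 members (40.5%) and in 9.04% of all genes. These are matches of letters, not measured binding sites. The 5 genes with 3 units are shown because they hold the longest elements in the set, with the matched bases in capitals and each written 5′ to 3′ on the strand of its gene. Hspd1 and Hspe1, the mitochondrial chaperonin and its lid, are transcribed away from each other and share 1 site, read on opposite strands.
Chordc1, chr9:18292259-18292288, plus strand: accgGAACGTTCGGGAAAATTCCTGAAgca
Hsph1, chr5:149636280-149636309, minus strand: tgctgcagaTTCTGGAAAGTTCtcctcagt
Dnajb6, chr5:29735828-29735887, plus strand: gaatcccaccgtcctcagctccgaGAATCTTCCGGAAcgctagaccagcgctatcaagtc
Hspd1, chr1:55088038-55088097, minus strand: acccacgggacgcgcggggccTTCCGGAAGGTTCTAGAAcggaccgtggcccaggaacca
Hspe1, chr1:55088038-55088097, plus strand: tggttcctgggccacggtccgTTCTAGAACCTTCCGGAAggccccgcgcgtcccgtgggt

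Hspa1b and Hspa1a, which code for the stress-inducible Hsp70, lie next to each other on chromosome 17, and their 250 bases before the start site differ at 3 positions. The 2 windows are shown because the counts of these genes cannot be fully separated. Each holds the GAANNTTC pair once, in capitals, and neither holds 3 units. Stip1, the other gene that chose the set, is shown beside them and holds neither form in this window.
Hspa1b, chr17:34959239-34959488, minus strand: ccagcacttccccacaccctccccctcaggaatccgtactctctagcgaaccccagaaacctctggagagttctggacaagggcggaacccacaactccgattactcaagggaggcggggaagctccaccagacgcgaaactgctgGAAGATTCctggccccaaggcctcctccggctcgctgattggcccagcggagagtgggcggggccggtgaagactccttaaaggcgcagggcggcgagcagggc
Hspa1a, chr17:34972157-34972406, minus strand: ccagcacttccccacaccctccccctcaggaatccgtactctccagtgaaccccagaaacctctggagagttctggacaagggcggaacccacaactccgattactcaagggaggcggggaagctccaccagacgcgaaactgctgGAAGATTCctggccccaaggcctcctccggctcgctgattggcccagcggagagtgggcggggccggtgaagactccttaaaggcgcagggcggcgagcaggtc
Stip1, chr19:7040027-7040276, minus strand: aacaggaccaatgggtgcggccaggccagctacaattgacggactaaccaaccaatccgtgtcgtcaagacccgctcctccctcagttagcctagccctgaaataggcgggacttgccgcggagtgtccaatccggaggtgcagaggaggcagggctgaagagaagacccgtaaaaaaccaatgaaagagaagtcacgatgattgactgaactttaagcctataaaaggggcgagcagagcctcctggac

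Across housing, the members were mostly higher in SI than in GH females, by small amounts, and no member passed the test in males. The log2 fold change (Log2FC) of SI over GH was above 0 for 40 of 46 members in females, with a median of 0.0882 (0.0077 over all 16026 genes tested). It was above 0 for 32 of 46 in males, with a median of 0.0454 (-0.002 over all 15833 genes tested). A gene is called here when its adjusted p from edgeR is under 0.05, in a fit with surrogate variables, which are unlabelled sources of variance estimated from the counts. In females 9 members were called, all higher, where 0.961% of all genes were called higher and 2.93% lower. This contrast chose the set, so the count describes the members and is no test of them. Those 9 were Hspa1b, Hspa1a, Hsph1, Dnajb5, Stip1, Chordc1, Hspa8, Fkbp4 and Ahsa1, with Log2FC from 0.17 to 0.35. The count was 0 with edgeR without surrogate variables, also with the digit in the sample labels as a factor, and 14 with DESeq2. It was 9 with limma-voom and sample quality weights. It was 3 without SI female 68 and 5 without SI female 45, GH female 54 or SI female 73. The share of all genes called in these other fits is not given, so a change of the whole fit would look the same. Hspa1a lost its call without 7 of the 15 females, left out one at a time, and Hspa8 and Dnajb5 without SI female 68.

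In males 0 of 46 members and 0 (0%) of all genes were called by edgeR. DESeq2 and limma-voom called 0 members, in fits whose share of all genes called is not given. At an unadjusted edgeR p under 0.05, 1 member was higher (Stub1) and 1 lower (Hspa13), where 5.63% of all genes were higher and 7.38% lower. Without SI males 25, 33 and 39 the direction of the fitted values turned, with 14 members higher, 32 lower and a median of -0.025. That fit had 4 surrogate variables, against 2 with all males, so mice and surrogate variables changed together. The CPM did not turn in every member. For Stip1, whose fitted value turned, SI males 7, 8, 27 and 38 had 179, 197, 186 and 214 CPM, against a GH male median of 183. Without GH males 1, 2 and 3 and SI males 7 and 8 (1 surrogate variable), 39 members were higher and the median was 0.149. At an unadjusted p under 0.05, 16 were then higher, where 11.1% of all genes were. No member was called in either case, where 0.00616% and 0.00638% of all genes (1 gene each) were called lower and 0% higher. Without SI male 27, 4 members were called, with Stub1, Cdc37 and Hsp90aa1 higher and Hspa13 lower, and 6.13% of all genes were then called higher and 9.16% lower.

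**Figure D2:**
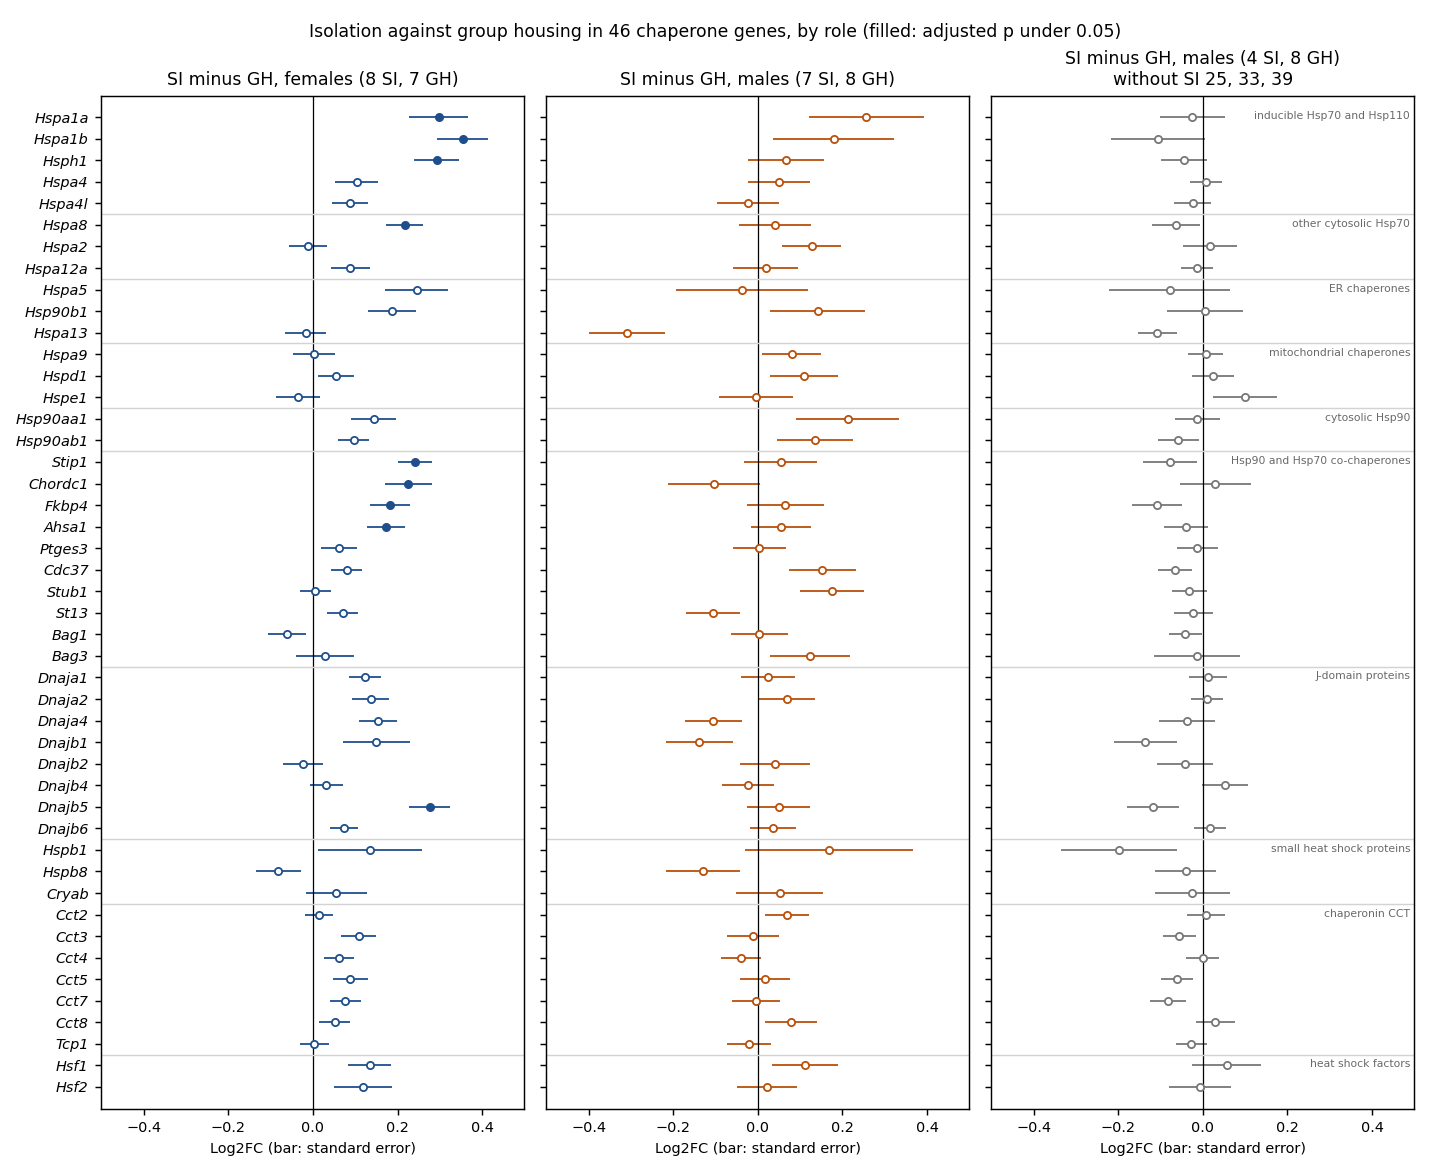
Log2FC of SI over GH for each of the 46 genes in females, in males and in males without SI males 25, 33 and 39 (point, Log2FC; bar, standard error; filled, adjusted p under 0.05), grouped by role. The 9 filled points are all in females and to the right of 0, and the male points lie on both sides of 0 without SI males 25, 33 and 39.

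Among the inducible Hsp70 and Hsp110 genes, all 5 were higher in SI females, with a median Log2FC of 0.29. Hspa1b had 13.0, 16.9 and 21.7 CPM (lowest, median and highest mouse) in GH females and 16.9, 21.9 and 30.1 in SI females. Males had 13.0, 24.2 and 30.1 CPM in GH and 13.6, 19.6 and 34.2 in SI. In females 4 of 8 SI mice were above every GH mouse, and in males the housing groups overlapped over most of their range, with SI males 25, 33 and 39 among the lowest. The Log2FC of Hspa1b was 0.35 ± 0.0605 (SE) in females and 0.18 ± 0.143 in males (edgeR adjusted p = 0.592). In males without SI males 25, 33 and 39, in a fit with 4 surrogate variables, it was -0.11. The CPM showed neither male value. The mean was 23.3 CPM in both GH and SI males, and SI males 7, 8, 27 and 38 had 31.4, 34.2, 19.6 and 30.8. Of the 150-base windows of the Hspa1b transcript, 40.5% also occur in Hspa1a and 38.7% the other way round, so how reads were shared between the 2 genes is uncertain.

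Hspa1a had 13.3, 15.9 and 21.2 CPM in GH females and 15.8, 20.1 and 28.2 in SI females. Males had 13.7, 19.3 and 24.5 CPM in GH and 12.2, 18.6 and 31.3 in SI. SI mice were both the lowest and the highest of the males, and SI males 25, 33 and 39 lay at 12.2 to 15.7. The Log2FC of Hspa1a was 0.30 ± 0.0692 in females and 0.26 ± 0.135 in males (edgeR adjusted p = 0.415). The male value came from a fit with 2 surrogate variables and was not seen in the CPM, whose mean was 19.3 in both GH and SI males. It was -0.02 without SI males 25, 33 and 39 and also -0.02 without SI male 38.

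Hsph1, the Hsp110 that exchanges nucleotide on Hsp70, had 149, 190 and 207 CPM in GH females and 216, 225 and 265 in SI females. In males it had 171, 237 and 266 CPM in GH and 170, 213 and 276 in SI. All 8 SI females were above every GH female, whereas the male groups covered each other. The Log2FC of Hsph1 was 0.29 ± 0.0525 in females and 0.07 ± 0.0902 in males (edgeR adjusted p = 0.771), and -0.04 in males without SI males 25, 33 and 39. The male means in CPM did not show the 0.07, at 225 in GH and 218 in SI. Hspa4 and Hspa4l, the other Hsp110 genes, had Log2FC of 0.10 and 0.09 in females and 0.05 and -0.02 in males.

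Of the other cytosolic Hsp70 genes, the constitutive Hspa8 differed from Hspa2 and Hspa12a in its values in females. Hspa8 had 1350, 1450 and 1550 CPM in GH females and 1610, 1670 and 1920 in SI females. Males had 1520, 1680 and 2090 CPM in GH and 1680, 1860 and 2060 in SI. The 8 SI females were above all 7 GH females, and every SI male lay within the range of the GH males. The Log2FC of Hspa8 was 0.22 ± 0.0434 in females and 0.04 ± 0.0846 in males (edgeR adjusted p = 0.87), and -0.06 in males without SI males 25, 33 and 39. With Hsph1 and Stip1 it was 1 of 3 members whose housing groups did not overlap in females, against 0.11% of all genes not overlapping in that direction. In males 0 members did, where 0.0305% of all genes did higher and 0.0244% lower. The female contrast and Stip1 itself chose the set, so the female count is a description and no test. Hspa2, best known from the testis, and Hspa12a, a distant relative, had Log2FC of -0.01 and 0.09 in females.

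Within the endoplasmic reticulum, Hspa5 (BiP), the main Hsp70 of that compartment, had 166, 192 and 213 CPM in GH females and 191, 211 and 277 in SI females. In males it had 170, 216 and 349 CPM in GH and 189, 235 and 251 in SI. The 2 highest of all 30 mice were GH males 1 and 2, whose choroid plexus markers were low. The Log2FC of Hspa5 was 0.25 ± 0.0741 in females and -0.04 ± 0.156 in males (edgeR adjusted p = 0.941), and in males it was 0.40 without the 5 libraries low in choroid plexus. Hsp90b1, the Hsp90 of the same compartment, had Log2FC of 0.19 ± 0.0569 in females and 0.14 ± 0.113 in males. Its male value was 0.01 without SI males 25, 33 and 39 and 0.38 without the males low in choroid plexus. Hspa13, a microsomal Hsp70 relative, had the smallest p of the members in males. It had 38.1, 40.5 and 44.2 CPM in GH males and 23.4, 30.8 and 40.0 in SI males, and 6 of 7 SI males were below every GH male. Its Log2FC in males was -0.31 ± 0.0899 (edgeR adjusted p = 0.295, unadjusted p = 0.00317). In females its groups overlapped, with a Log2FC of -0.02. Without SI males 25, 33 and 39 the male value was -0.11 (edgeR adjusted p = 0.776), and without SI male 27 it was -0.44 (edgeR adjusted p = 0.00453).

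The mitochondrial chaperones gave values near 0 in females. Hspa9 (mortalin), Hspd1 (Hsp60) and Hspe1 (Hsp10) had Log2FC of 0.00, 0.06 and -0.04 there, and 0.08, 0.11 and -0.01 in males. In males Hspe1 followed the libraries that stood apart. It had 167 to 225 CPM in SI males 25, 33 and 39 and 54.9 to 105 in the other 12 males. The male Log2FC of Hspe1 was 0.10 without SI males 25, 33 and 39 and 0.38 without the males low in choroid plexus.

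Of the cytosolic Hsp90 genes, the inducible Hsp90aa1 had 766, 889 and 931 CPM in GH females and 854, 983 and 1190 in SI females. In GH males it had 788, 937 and 1190 CPM, and in SI males 887, 1180 and 3430. The 3 highest values were those of SI males 25, 33 and 39, at 2010 to 3430 CPM, and the other 12 males had 788 to 1190. The Log2FC of Hsp90aa1 was 0.14 ± 0.0523 in females and 0.21 ± 0.122 in males (edgeR adjusted p = 0.454), and it was -0.01 in males without those 3. Hsp90ab1, the constitutive form, had 1640, 1740 and 1950 CPM in GH females and 1760, 1920 and 2140 in SI females. In males it had 1720, 1960 and 2320 CPM in GH and 1810, 2310 and 2640 in SI, with overlap in both sexes. Its Log2FC was 0.10 ± 0.0361 in females and 0.13 ± 0.0897 in males (edgeR adjusted p = 0.516), and -0.06 in males without SI males 25, 33 and 39.

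**Figure D3:**
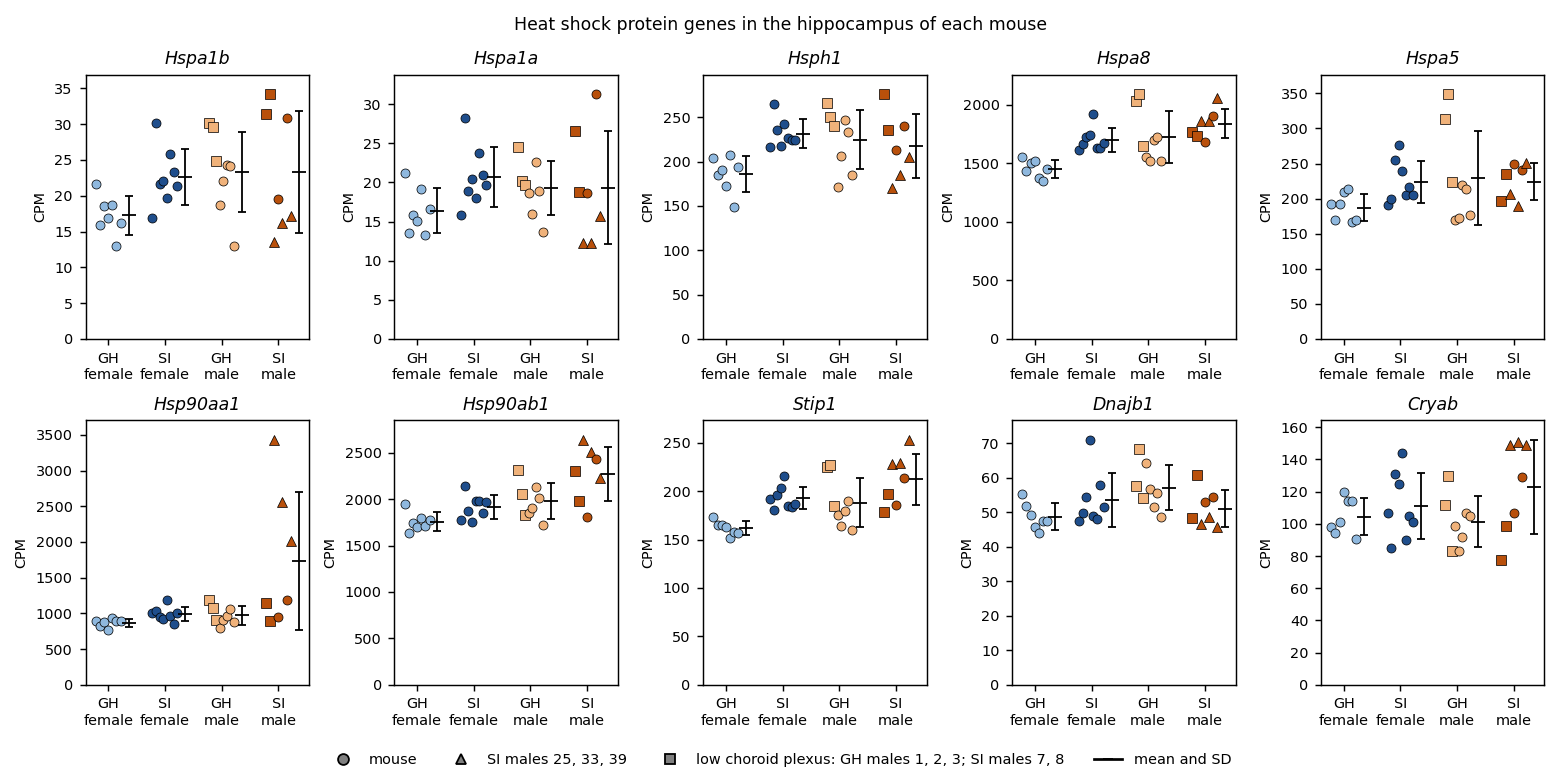
CPM of 10 members in each mouse by group (circles, triangles for SI males 25, 33 and 39, squares for the 5 males low in choroid plexus; black, mean and SD). All SI females lie above all GH females for Hsph1, Hspa8 and Stip1, and the triangles lie far above the other males for Hsp90aa1.

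Among 10 co-chaperones of Hsp90 and Hsp70, 4 were called higher in females, where 0.961% of all genes were. Stip1, 1 of these 4, chose the set, so this count is a description and no test. Ptges3 and Cdc37, also co-chaperones of Hsp90, were not called (0.06 and 0.08). Stip1 (Hop), which hands clients from Hsp70 to Hsp90, had 152, 163 and 173 CPM in GH females and 181, 189 and 216 in SI females. In males it had 160, 183 and 227 CPM in GH and 179, 214 and 253 in SI. The female groups did not overlap, and in males the 3 values above every GH male were those of SI males 25, 33 and 39. The Log2FC of Stip1 was 0.24 ± 0.0392 in females and 0.05 ± 0.0868 in males (edgeR adjusted p = 0.818), and -0.08 in males without those 3. Chordc1 (Morgana), Fkbp4 (FKBP52), an immunophilin of steroid receptors, and Ahsa1, which speeds the ATPase of Hsp90, had Log2FC of 0.23, 0.18 and 0.17 in females. Chordc1, Fkbp4 and Ahsa1 were no longer called without 10, 8 and 9 of the 15 females, left out one at a time. In males the values of these 3 genes were -0.10, 0.06 and 0.05. They turned to 0.03, -0.11 and -0.04 without SI males 25, 33 and 39, and were 0.09, 0.28 and 0.26 without the males low in choroid plexus.

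The remaining co-chaperones differed little in females. Stub1 (CHIP), a ubiquitin ligase that acts on chaperone clients, had Log2FC of 0.01 in females and the smallest p among the members higher in males. It had 137, 146 and 166 CPM in GH males and 140, 196 and 286 in SI males, and 4 of 7 SI males were above every GH male. Of these, SI males 25, 33 and 39 had 241 to 286 CPM and the other 12 males 137 to 196. Its Log2FC in males was 0.17 ± 0.0752 (edgeR adjusted p = 0.359, unadjusted p = 0.033), -0.03 without those 3 and 0.30 (edgeR adjusted p = 0.00769) without SI male 27. Cdc37, which brings kinases to Hsp90, had 152, 174 and 186 CPM in GH males and 160, 227 and 303 in SI males. Its pattern over males was like that of Stub1, with 261 to 303 CPM in SI males 25, 33 and 39, and its Log2FC was 0.15 ± 0.0788 (edgeR adjusted p = 0.409), or -0.07 without those 3. St13 (Hip), which holds Hsp70 in its client-bound state, had 136, 142 and 156 CPM in GH males and 117, 138 and 152 in SI males, with a Log2FC of -0.11 ± 0.0629 (edgeR adjusted p = 0.461). Ptges3 (p23), Bag1 and Bag3 had Log2FC of 0.06, -0.06 and 0.03 in females and 0.00, 0.00 and 0.12 in males, which turned to -0.01, -0.04 and -0.01 without SI males 25, 33 and 39.

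J-domain proteins, which deliver clients to Hsp70, were higher in SI females for 7 of 8 genes. Dnajb5 (Hsc40) had the largest value, with 76.0, 88.0 and 97.8 CPM in GH females and 92.8, 103 and 130 in SI females, and 6 of 8 SI mice above every GH mouse. The Log2FC of Dnajb5 was 0.28 ± 0.0485 in females and 0.05 ± 0.0743 in males, where it turned to -0.12 without SI males 25, 33 and 39. Dnajb1 (Hsp40), the classic heat-inducible J-protein, had 43.9, 47.6 and 55.3 CPM in GH females and 47.6, 50.8 and 71 in SI females. Males had 48.5, 56.1 and 68.4 CPM in GH and 45.8, 48.5 and 60.9 in SI, and 4 of 7 SI males were below every GH male. Among these were SI males 25, 33 and 39, with 45.8 to 48.5 CPM, where the other 12 males had 48.3 to 68.4. The Log2FC of Dnajb1 was 0.15 ± 0.0786 in females and -0.14 ± 0.08 in males (edgeR adjusted p = 0.455). Dnaja1, Dnaja2 and Dnaja4 had Log2FC of 0.12, 0.14 and 0.15 in females and 0.02, 0.07 and -0.11 in males. Dnajb2, Dnajb4 and Dnajb6 had -0.02, 0.03 and 0.07 in females.

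Small heat shock proteins bind unfolded clients without ATP. Cryab (αB-crystallin), which oligodendrocytes express strongly, had 90.3, 101 and 120 CPM in GH females and 84.8, 106 and 144 in SI females. Levels in males were 82.9, 102 and 130 CPM in GH and 77.3, 129 and 151 in SI, and SI males 25, 33 and 39 had 149 to 151. The groups overlapped in both sexes, with Log2FC of 0.06 ± 0.0724 in females and 0.05 ± 0.103 in males (edgeR adjusted p = 0.86). The male value was -0.03 without SI males 25, 33 and 39. Summed levels of 6 oligodendrocyte markers, all above 0, were 6400 to 9720 CPM in GH females, 5630 to 8840 in SI females, 5880 to 7790 in GH males and 5140 to 10600 in SI males, and their part in the values of Cryab was not tested. Hspb1 (Hsp27) and Hspb8 had Log2FC of 0.13 ± 0.123 and -0.08 ± 0.0531 in females, and 0.17 ± 0.198 and -0.13 ± 0.0876 in males. Both male values turned. Without SI males 25, 33 and 39 all 3 small heat shock genes were below 0 (-0.1984 to -0.0251). Without the males low in choroid plexus all 3 were above 0 (0.0492 to 0.7181).

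The set holds 7 subunits of the chaperonin CCT, which folds actin and tubulin, and none was called in either sex. In females their Log2FC ran from 0.00 (Tcp1) to 0.11 (Cct3), with a median of 0.06. In males 3 were higher and 4 lower, with a median of -0.0044. Without SI males 25, 33 and 39, 2 were higher and 5 lower (median -0.03), and without the males low in choroid plexus all 7 were higher (median 0.13). All 7 were higher in each of SI males 25, 33 and 39 than in any other male, for example Cct5 with 232 to 238 against 134 to 175 CPM. How many of all genes were so was not counted. The heat shock factors Hsf1 and Hsf2 had Log2FC of 0.13 ± 0.051 and 0.12 ± 0.0682 in females and 0.11 ± 0.0788 and 0.02 ± 0.0703 in males. The male value of Hsf2 turned to -0.01 without either set of libraries.

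The 46 members did not move as one block in SI males 25, 33 and 39. In these libraries 18 members were above every other male, among them all 7 CCT subunits, Hspe1, Hsp90aa1, Hsp90b1, Stip1, Ahsa1, Ptges3, Cdc37, Stub1, Bag1, Dnajb6 and Cryab. Only Hspa12a was below every other male, at 99.2 to 113 against 168 to 281 CPM. The share of all genes above or below every other male in these libraries was not counted. The counts are thus no trait of the members. Hspa1a, Hspa1b and Hspa4 were low in them as well, with ratios of medians to the other 12 males of 0.635, 0.658 and 0.697, where Hsp90aa1 had 2.68 and Hspe1 2.52. Summed levels of 5 microglial markers were 332 to 408 CPM in these libraries, those of 4 endothelial markers 227 to 279 CPM and those of 3 CA1 pyramidal markers 349 to 391 CPM, against group medians in GH males of 247, 149 and 552 CPM. Markers of CA3 pyramidal neurons went the other way from CA1, with 731 to 758 CPM against a median of 550, and 6 oligodendrocyte markers had 8190 to 10600 against 6990. Those of dentate granule neurons had 159 to 197 against 222, and 5 astrocyte markers 1320 to 1490 against 1700. No marker of these lists was at 0 in any library. The longest transcript has 964 bases for Hspe1, 4618 for Hspa4 and 5733 for Hspa12a. It has 3281 for Hsp90aa1, 2926 for Hspa1a and 2803 for Hspa1b. The libraries of SI males 25, 33 and 39 held 18809307 to 25609585 counts, and that of SI male 8 held 19349259. The part of cell types, transcript length and depth in the chaperone values was not tested.

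GH males 1, 2 and 3 showed another pattern. For 42 of 46 members their median was above that of the other 5 GH males, with a median ratio of 1.09. The share of all genes with a higher median there was not counted, so this count is no trait of the members. The ratio was 1.77 for Hspa5, 1.34 for Hspa1b, 1.31 for Hspa8 and 1.28 for Stip1. GH males 1 and 2 had the 2 highest Stip1 values of their group, 225 and 227 CPM, where the other 6 had 160 to 190. The part of the choroid plexus content in this was not tested.

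**Figure D4:**
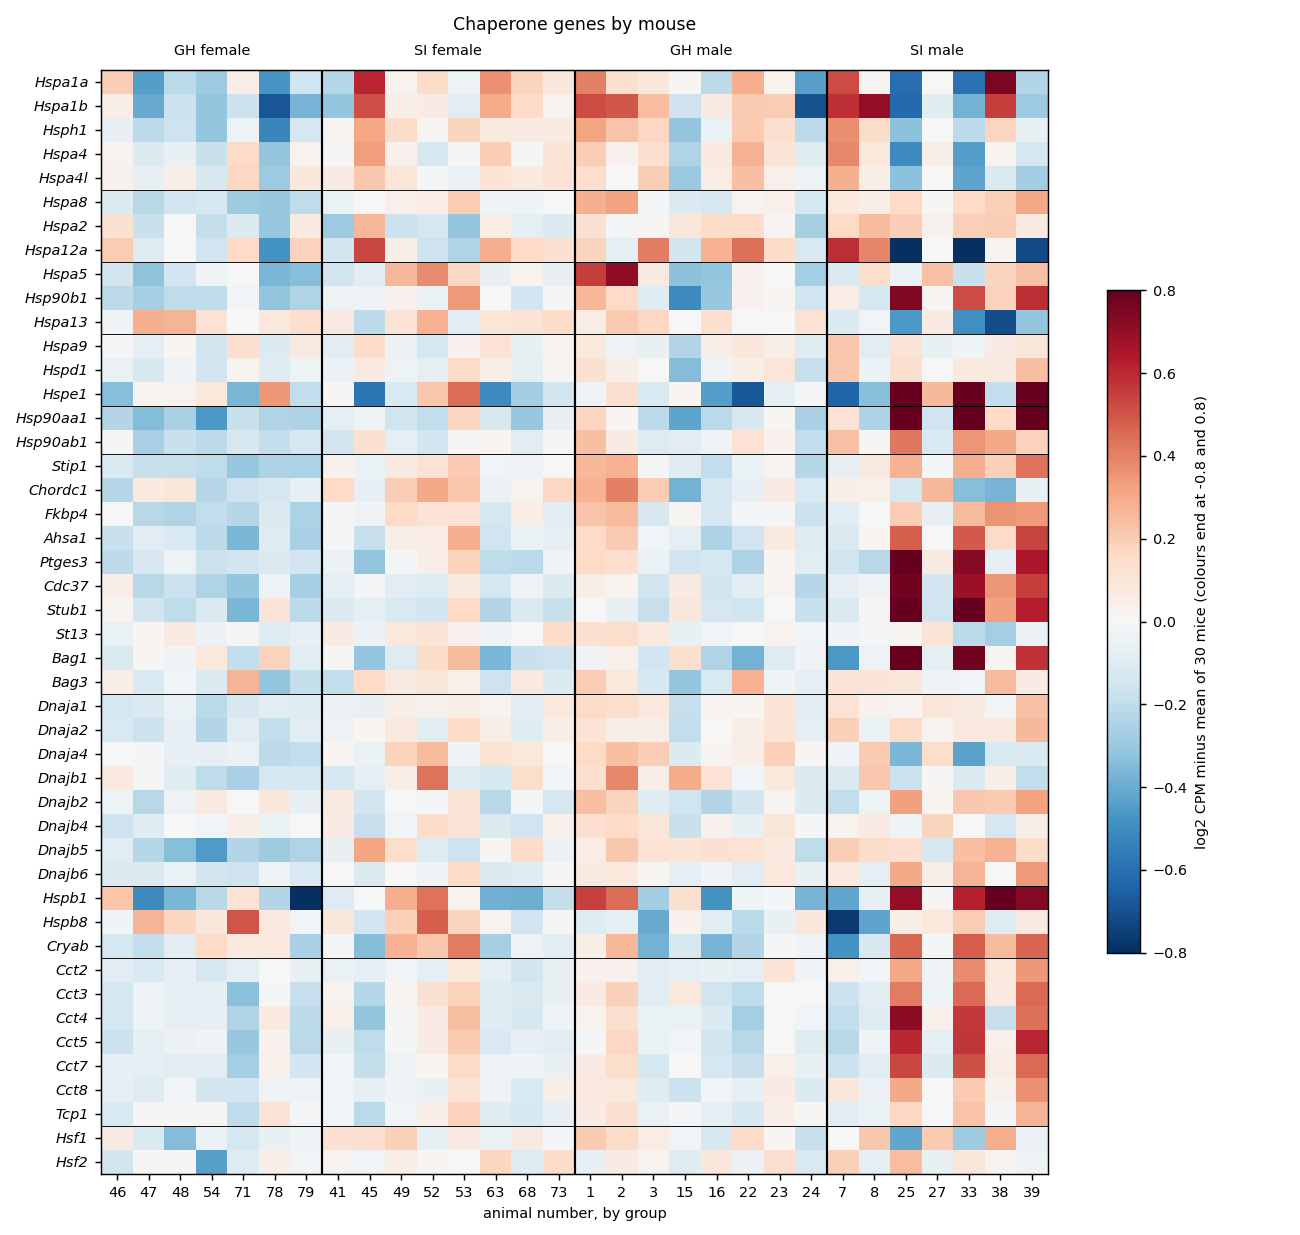
Log2 CPM of the 46 members (rows, by role) in each of the 30 mice (columns, by group and animal number), as the difference from the mean of all mice, with colours that end at -0.8 and 0.8. GH females are mostly blue, and SI males 25, 33 and 39 are red for the CCT subunits, Hspe1, Hsp90aa1 and several co-chaperones and blue for Hspa1a and Hspa12a.

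To compare the sexes directly, the 4 groups were fitted together, with 4 surrogate variables for the 30 mice. For the difference between the housing effects of the sexes, 0 of 46 members and 0 (0%) of all 16391 genes were called by edgeR. DESeq2 called 0 members, in a fit whose share of all genes called is not given. This comparison holds the female contrast that chose the set, so its direction was tilted in advance and the counts are a description only. At an unadjusted p under 0.05, 13 members had a more positive value in females and 0 in males, where 4.94% and 2.54% of all genes did. The largest of these differences were 0.30 ± 0.108 for Dnajb1, 0.27 ± 0.113 for Chordc1 and 0.23 ± 0.097 for Dnajb5, and that of Hspa1b was 0.14 ± 0.188. SI male 27 decided calls here. Without it Chordc1 (0.44) and Hspa13 (0.37) were called more positive in females, where 1.35% of all genes were and 0.366% were more negative.

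Among GH mice the members were mostly lower in females than in males. The Log2FC of GH females over GH males was below 0 for 39 of 46 members, with a median of -0.10 (0.00 over all genes). Of these, 8 were called lower and 0 higher, where 3.01% of all genes were called lower and 3.31% higher. They were Hspa1b (-0.45), Dnajb5 (-0.37), Hsph1 (-0.27), Hspa8 (-0.23), Fkbp4 (-0.20), Stip1 (-0.20), Dnaja2 (-0.15) and Dnaja1 (-0.13). The GH females are the same mice that served as the reference for SI females, so these values share them and support nothing about housing. The count also rested on single mice, in fits whose share of all genes called is not given here. It was 1 without GH male 2, 3 or 22 or GH female 47, 54 or 71, 2 without SI male 38 or GH female 48, 3 without GH male 23 or SI female 45, 4 without GH male 1 or SI male 33 and 5 without SI female 68. It was 13 without SI male 39, GH female 46 or SI female 49 or 63, 16 without SI male 8, 17 without SI male 25, 20 without GH male 15 and 21 without GH male 24. It was also 1 without SI males 25, 33 and 39, where 0.252% of all genes were called lower, and 1 without the 5 males low in choroid plexus, where 1.88% were. Among SI mice 1 member was called higher in females (Hspa13, Log2FC 0.33) and 1 lower (Hspa2, -0.32), where 2.9% and 3.38% of all genes were. The count for SI mice was 0 without GH female 71, GH male 3, SI female 41, 68 or 73 or SI male 25 or 38, and 1 without SI female 53. It was 3 without GH female 78, GH male 24 or SI female 45 or 63, 4 without GH male 15, 6 without SI male 7 and 12 without SI male 27. Shares of all genes called in these fits are not given either, so a moved count may be that of the whole fit.

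Correlations of Hspa1b with 9 other genes across mice were computed on log2 CPM with the mean of each housing group removed, so that the housing difference that chose the set was kept out. They covered 15 females and the 12 males other than SI males 25, 33 and 39, 18 pairs in all, with two-sided permutation tests adjusted over the 18. In females Hspa1a followed Hspa1b most closely (r = 0.939, p = 1e-05, the smallest that 100000 permutations can give, adjusted p = 0.00018; rho = 0.886, p = 2e-05), and r was 0.879 without the 2 mice farthest from the median. Reads shared between the 2 genes enter this value. In the 12 males the pair was weaker (r = 0.679, p = 0.0129; rho = 0.629, p = 0.0313; permutation tests), and r fell to 0.301 without the 2 farthest mice, so in the 12 males it rested on them.

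Hsph1 followed Hspa1b in both sexes. In females r was 0.728 (permutation p = 0.00234, adjusted p = 0.014) and rho was 0.496 (p = 0.0612, adjusted p = 0.122), so that only r passed the adjustment, and r was 0.555 without the 2 farthest mice. In males r was 0.811 (permutation p = 0.0016, adjusted p = 0.014) and rho was 0.825 (p = 0.00152, adjusted p = 0.0119), with r = 0.834 without the 2 farthest mice. Hspa8 followed Hspa1b in males (r = 0.73, permutation p = 0.00966, adjusted p = 0.0348; rho = 0.811, p = 0.00198, adjusted p = 0.0119), and r was 0.823 without the 2 farthest mice. For Stip1 in males r was 0.72 (permutation p = 0.00965, adjusted p = 0.0348) and rho was 0.713 (p = 0.0111, adjusted p = 0.0502). In females the same 2 genes gave r = 0.198 for Hspa8 (permutation p = 0.479, rho = 0.189, p = 0.495) and r = -0.169 for Stip1 (permutation p = 0.546, rho = -0.304, p = 0.27). Whether the sexes differ in these correlations was not tested. Without the libraries low in choroid plexus, 7 males were left. In these, r was 0.853 for Hspa1a, 0.75 for Hsph1, 0.802 for Hspa8 and 0.81 for Stip1. In the same order, rho was 0.929, 0.786, 0.893 and 0.857. No p-value is given for these 7 males, because only 2 of them were SI mice. With their group mean removed, the values of these 2 mirror each other, so the 7 values cannot be permuted freely. An r without the 2 farthest mice is not given for these 7 males. Dnajb1, Hsp90aa1, Hspa5, Cct2 and Cirbp did not pass the adjustment with Hspa1b in either sex. Some of these values also rested on few mice. In the 12 males r was 0.585 for Hspa5 and -0.413 for Cirbp, and 0.875 and -0.755 without the 2 farthest. For Dnajb1, Hsp90aa1 and Cct2 it was then 0.096, 0.635 and 0.381. In females the 5 ran from -0.466 (Cct2) to 0.393 (Hspa5) without the 2 farthest.

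**Figure D5:**
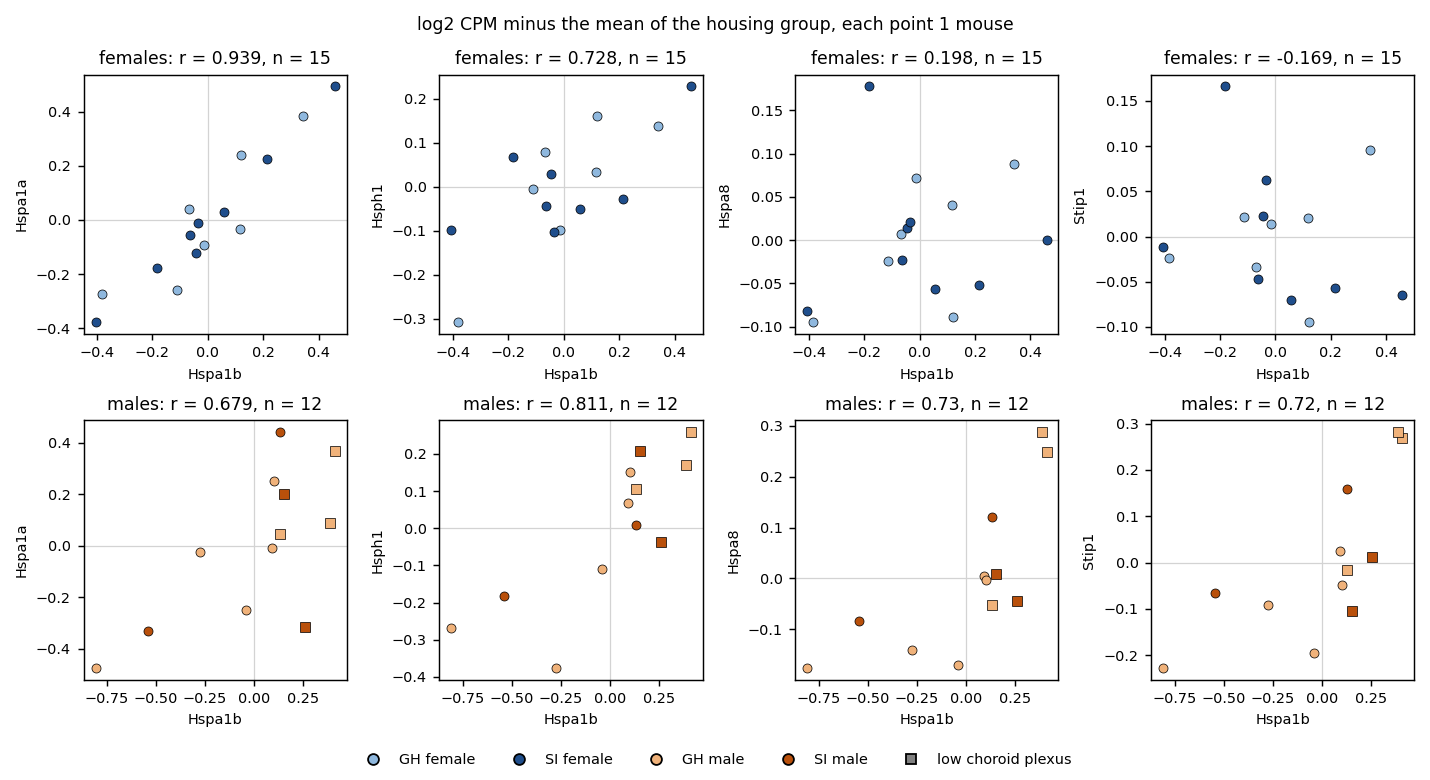
Log2 CPM of Hspa1a, Hsph1, Hspa8 and Stip1 against that of Hspa1b, each minus the mean of its housing group, in 15 females (top) and 12 males (bottom), with Pearson's r above each panel. Hspa1a follows Hspa1b closely in females (0.939), and in males the points of GH males 1 and 2 lie at the upper right for Hspa8 and Stip1.

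Further chaperone genes outside the set were counted in the same fits. Of 33 other chaperones and co-chaperones, 19 were higher in SI females, with a median Log2FC of 0.01. Among them 1, the cyclophilin Ppid (0.15 ± 0.0369), was called higher and 1, the prefoldin subunit Pfdn5 (-0.19 ± 0.052), lower, where 0.961% and 2.93% of all genes were. Of 16 genes of the endoplasmic reticulum and the unfolded protein response, 13 were higher in SI females, with a median of 0.11. The 2 called were Calr (0.29 ± 0.0573) and Pdia6 (0.19 ± 0.0506), a calcium-binding chaperone and a disulphide isomerase. In males 0 genes of both lists were called, 17 of 33 and 7 of 16 were higher, and the medians were 0.00 and -0.02. At an unadjusted p under 0.05, 2 of the 33 were higher and 2 lower in males, and 0 of the 16 in either direction, where 5.63% of all genes were higher and 7.38% lower. Without SI males 25, 33 and 39, 11 of the 33 and 0 of the 16 were higher (medians -0.02 and -0.05). Without the males low in choroid plexus, 24 of the 33 and 15 of the 16 were higher (medians 0.08 and 0.25), with 6 and 9 higher at an unadjusted p under 0.05, where 11.1% of all genes were. The direction of both lists in males thus depended on the libraries kept and the surrogate variables fitted with them, and 0 genes of either were called in both cases.

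Markers of other cell types were summed in females too, and their groups overlapped. Summed levels of 5 astrocyte markers were 1720 to 2220 CPM in GH and 1360 to 1970 in SI females, and those of 4 endothelial markers 118 to 142 and 133 to 182 CPM. Choroid plexus markers overlapped, with 864 to 4950 CPM in GH and 1580 to 4020 in SI females. Every marker was above 0 in every library. Their part in the chaperone values of females was not tested.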

How the data were processed

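RNA was measured in the hippocampus of 30 mice, 1 library each. The authors trimmed paired reads with Trimmomatic, quantified them with Salmon 1.8.0 and deposited whole-number counts per gene without normalization. Each of the 17477 genes in the table has at least 100 counts in total. The submitters' processing notes also name DESeq2 1.24.0 and the build GRCm39, and the annotation release is not given in the sources used here. All 30 columns were matched to mice by name, and 0 columns had no sample. Symbols were found for 16439 of 17477 IDs (94.06%). Lengths came from GENCODE vM1. Whether the counting used strand is not given in the sources used here.

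For the analysis of counts, edgeR 4.0.16 was run in R 4.3.3 (filterByExpr with minimum count 10 and minimum total count 15, TMM, glmQLFit and glmQLFTest, Benjamini-Hochberg adjusted p under 0.05). Surrogate variables came from svaseq of sva 3.50.0, with 3 in females, 2 in males and 4 in the fit of all mice, their number set by 20 permutations with seed 1. Without SI males 25, 33 and 39 the male fit had 4, and without the males low in choroid plexus it had 1. CPM are counts scaled to the TMM library size, and log2 CPM used a prior count of 2. Alternatives used DESeq2 1.42.0 and limma 3.58.1. Permutation tests used 100000 resamples. Scripts were tested on simulated data. The edgeR p-values rest on the spread between mice that was left after the surrogate variables, which came from the same counts. The permutations ran across housing groups, although values centred within a group are not fully independent. Libraries held 18809307 to 100844898 counts.

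The members and the lists were chosen with earlier results of these data known. Any member could be named. Values by mouse were given for 10 members named in the plan (Stip1, Hspa1b, Hspa1a, Hspa8, Hsp90aa1, Hsp90ab1, Hsph1, Dnajb1, Hspa5 and Cryab) and for the 3 members with the smallest p that were higher and the 3 that were lower in SI males, and also for Dnajb5, chosen after its values were seen. Other genes were named from the lists of chaperones, of cell markers or of correlated genes. Leaving out the males low in choroid plexus was an alternative chosen after seeing the data.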

Additional observations from a re-analysis of the deposited data

Results flagged for a closer look

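In each of the 4 groups, the highest and lowest mouse of 14 members (the 10 of the plan and the others with the smallest p in males) were compared with the nearest other mouse, and 3 of 56 member and group pairs had a mouse set apart by more than Dixon's critical value. Chance alone sets a mouse apart in about 1 of 20 groups. SI female 53 had the highest Hspa8, at 1920 CPM, with the next SI female at 1740 CPM. The same mouse had the highest Stub1 of its group, at 174 CPM, with the next at 149 CPM. SI female 52 had the highest Dnajb1, at 71 CPM, with the next at 57.8 CPM.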

How the results depend on the processing

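No paired analysis was possible because the groups share no animal numbers. Each mouse was left out in turn. The count of members called in females ran from 3 to 11, in males from 0 to 4, for the sex difference in housing effect from 0 to 2, for GH females over GH males from 1 to 21 and for SI females over SI males from 0 to 12, and the medians from 0.0862 to 0.1108 in females and from 0.0083 to 0.0802 in males. With DESeq2 the counts were 14 in females and 16 for GH females over GH males. Shares of all genes called in most of these fits are not given, so the counts do not set the members apart from other genes. Without surrogate variables they were 0 (also with the digit in the sample labels as a factor) and 1. The count for GH females over GH males was 2 with no filter and 1 without either set of male libraries, and it moved by over 1.5 times when each of 21 of the 30 mice was left out in turn. Correlations passing the adjustment on both measures numbered 3, and 1 after removing surrogate variables and 1 without the males low in choroid plexus. The pair motif gave 15 promoters in place of 5.

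Without SI males 25, 33 and 39 the male median turned to -0.025, and the male Log2FC turned to -0.0781 for Stip1, -0.1062 for Hspa1b, -0.0249 for Hspa1a, -0.064 for Hspa8, -0.0131 for Hsp90aa1, -0.0582 for Hsp90ab1, -0.0444 for Hsph1, -0.0251 for Cryab, -0.0316 for Stub1 and -0.0663 for Cdc37. Without surrogate variables male Hspa1b was -0.0013 and Hsph1 -0.0417, and with that digit Hspa1b was -0.1616, Hspa1a -0.0959 and Hsph1 -0.1084. Male Hspa5 turned to 0.0652 with limma-voom, 0.3961 without the males low in choroid plexus and 0.0031 in the fit of all mice. Male Cryab turned to -0.0056 with the length trend removed and -0.0115 in the fit of all mice, and female Stub1 to -0.0019 with no filter. Single mice left out moved the male Log2FC of Hspa1a from -0.0205 to 0.3514, Hspa5 from -0.0939 to 0.1085 and Cryab from -0.0099 to 0.1853, and the female Log2FC of Stub1 from -0.0465 to 0.0834 and Hspa13 from -0.0817 to 0.0117. The fit without SI males 25, 33 and 39 had 4 surrogate variables, against 2 with all males, so mice and surrogate variables changed together. The causes were not tested. Counting error is relatively largest in the members with the fewest counts, such as Hspb1 and Bag3. Hspa1a and Hspa1b are also among the members with few counts.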

Other observations

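The cold-inducible RNA-binding genes Cirbp and Rbm3, which rise when temperature falls, were listed beside the heat shock genes. Cirbp had 62.3, 72.7 and 93.8 CPM (lowest, median and highest mouse) in GH females and 47.6, 59.0 and 79.8 in SI females. Rbm3 had 85.0, 91.6 and 146 CPM in GH females and 58.8, 73.1 and 94.6 in SI females. The female groups overlapped for both, with Log2FC of -0.28 ± 0.103 and -0.37 ± 0.112, and neither was called. In males the edgeR Log2FC were 0.20 ± 0.101 (adjusted p = 0.409) and 0.01 ± 0.132 (adjusted p = 0.985). Without SI males 25, 33 and 39 both stayed above 0 (0.0553 and 0.0962). Without the males low in choroid plexus 1 was above 0 (0.092) and 1 below (-0.1442). SI males 25, 33 and 39 had 111 to 151 CPM of Cirbp and 145 to 233 of Rbm3, and the other 12 males 49.4 to 87.3 and 65.4 to 130.

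The spread between mice of a group is given as the coefficient of variation of CPM. The median coefficient of variation of the 46 members was 7.61% in GH females, 8.79% in SI females, 9.99% in GH males and 16.4% in SI males, where the median of all 16391 genes was 11.8%, 12.2%, 11% and 25.6%. The range ran from 3.16% for Dnajb6 to 28% for Hspb1 in GH females, and reached 55.8% for Hsp90aa1 in SI males. Members have more counts than the typical gene, and the part of depth in this was not tested.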
